A study of Mus musculus with 4 samples.

Results

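A set of 9 genes of distal mouse chromosome 4, the arm end that carries the taste receptor gene Tas1r3, was followed in testis RNA of wild-type mice and of mice lacking Tas1r3. They were Mxra8, C1qtnf12, Cptp, Vamp3, Clcn6, Kcnab2, Ints11, Ccnl2 and Dffa, 9 of 17934 genes measured and 9 of the 166 that lie on chromosome 4 from 11.9 Mb before Tas1r3 to the chromosome end, called the region here (mm39). The genes were picked by symbol for their difference between genotypes in these same 4 libraries, so their genotype differences are given as a description and carry no test. The testes came from male C57BL/6 mice, either wild type (WT, 2 libraries) or Tas1r3-/- (KO, 2 libraries). Mice of both genotypes were on a western diet, given for 18 weeks, and none of the groups was on another diet. The age of the mice, the construction of the null allele and the number of animals behind a library are not given in the sources used here, and p-values therefore measure only the spread between these samples, which could be purely technical. Values are CPM, read counts scaled to a total of 1000000 assigned reads, summed over the transcripts of a gene.

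The 9 genes share a chromosome arm, not a pathway. Mxra8 and C1qtnf12 act at or outside the cell surface: the first is an immunoglobulin-domain adhesion protein and the entry receptor of arthritogenic alphaviruses, the second a secreted member of the C1q and tumour necrosis factor family that is known for insulin-sensitizing effects. Cptp, Vamp3 and Clcn6 work on intracellular membranes, as a carrier of ceramide-1-phosphate, a fusion protein of recycling endosomes and a chloride-proton exchanger of late endosomes. Kcnab2 encodes an auxiliary beta subunit of voltage-gated potassium channels. Ints11 and Ccnl2 serve RNA processing: Ints11 is the endonuclease of the Integrator complex, which cuts nascent small nuclear RNAs and paused transcripts, and Ccnl2 is a cyclin of splicing speckles that pairs with CDK11 kinases. Dffa encodes the inhibitor that keeps the apoptotic DNA nuclease Dffb inactive until caspases cut it.

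Tas1r3 itself lies at chromosome 4, 155943726 to 155947811 on the minus strand. It had 13.8 and 20.5 CPM in the WT libraries against 1.34 and 0 CPM in KO, or 60.7 estimated reads over the WT libraries and 1.00 over the KO libraries, so the targeted gene followed the labels. Depth went with genotype: the estimated number of assigned reads was 1719355 and 1807697 for the WT libraries against 748637 and 597937 for KO, a ratio of means of 2.62. The part of depth in the differences below was not tested, and estimated reads are given beside some of the low values. Germ cell markers, 10 of 10 measured, summed to 27702 and 27433 CPM in the WT libraries against 23613 and 34394 CPM in KO, so germ cell RNA was abundant in all 4 libraries. Smooth muscle markers of peritubular cells, 5 of 5 measured, were lower in KO in mean log2 value, with sums of 105 and 114 CPM in the WT libraries against 85.7 and 86.5 CPM in KO. Red cell markers were lower in mean log2 value in 5 of 5, with sums of 47.8 and 186 CPM in the WT libraries against 35.8 and 53.9 CPM in KO, which overlapped. No marker was at 0 in all libraries, and the part of these cells in the results was not tested. In whole tissue, fewer cells of a type and less RNA per cell cannot be told apart.

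The genes were not all near Tas1r3. Measured between the lower ends of the genes, Cptp lay 5.45 kb, Ints11 10.3 kb, Mxra8 19.6 kb, Ccnl2 46.8 kb and C1qtnf12 103 kb away. Kcnab2 lay 3.47 Mb, Vamp3 4.81 Mb, Dffa 6.76 Mb and Clcn6 7.86 Mb away, all towards the centromere, with many measured genes in between. The outermost, Clcn6, begins at 148088716, so no member lies close to the limit of the region. Of the 9 genes, 5 are on the plus strand and 4 on the minus strand.

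In all 9 genes the WT values lay wholly on one side of the KO values. In 6 genes KO was higher and in 3 lower, while across all 17654 genes tested the genotypes did not overlap for 34.3% in either direction, 15.1% with KO higher and 19.2% with KO lower. Of the 9 genes, 0 passed the test across all genes (limma on log2(CPM + 1), Benjamini-Hochberg (BH) adjusted p under 0.05, passed by 0.00566% of genes, that is 1 gene elsewhere), and 8 had an unadjusted p under 0.05, 5 with KO higher and 3 with KO lower. Over all genes 4.33% had such a p, 1.33% with KO higher and 3.01% with KO lower. Since these same values picked the genes, nothing is read from those counts. With no limit on the size of the difference in the choice, the weakest member, Cptp, ranked 30 of 164 tested genes of the region by unadjusted p. Of the other 155, Tas1r3 included, 61 also had genotypes that did not overlap. The spread between the libraries of a genotype was above that of read counting alone in 1 gene in WT and 2 in KO, so for most of the 9 the SD of 2 libraries is below counting error.

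**Figure D1:**
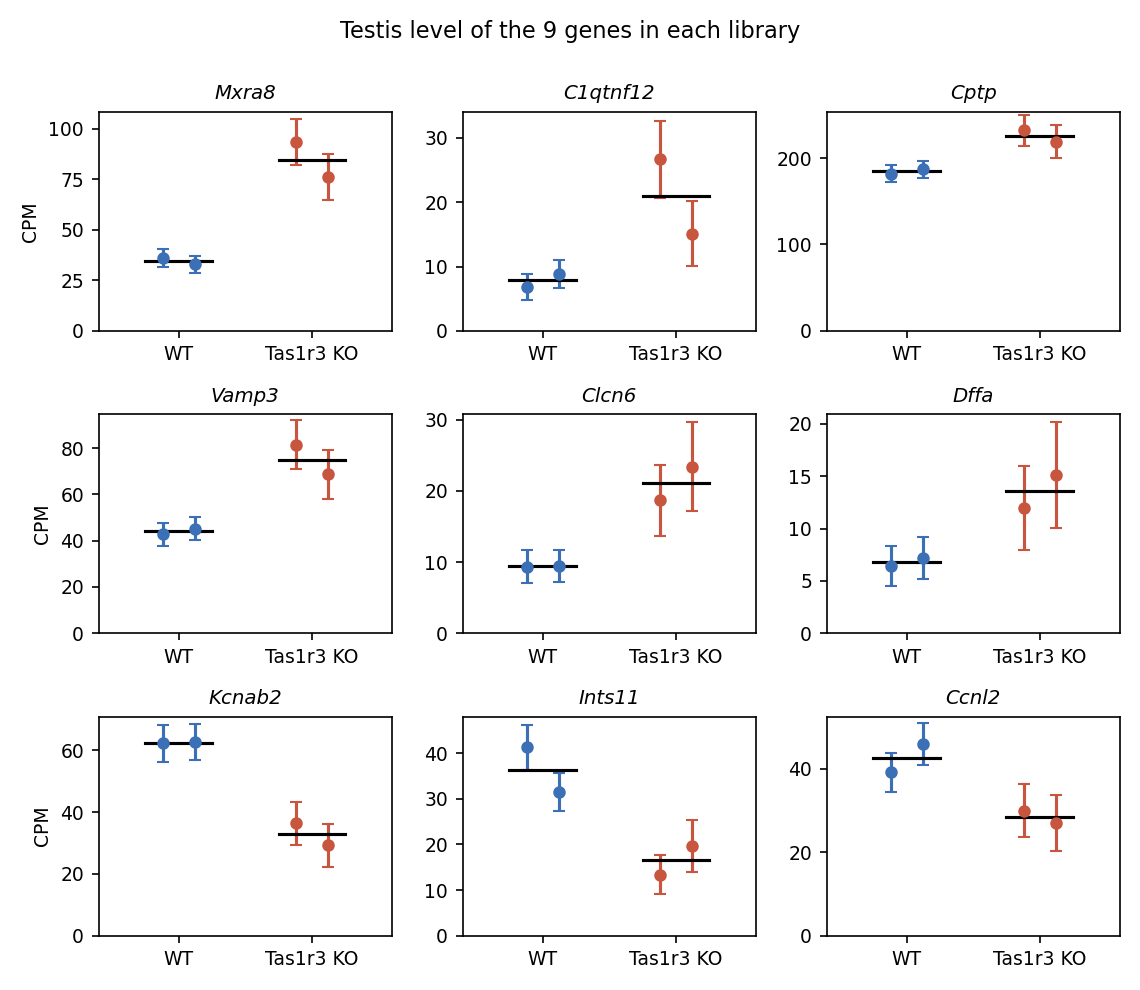
CPM of each of the 9 genes (y axis, from 0) in each library (dots), with WT in blue and Tas1r3 KO in red; error bars are the SD of read counting and black lines the group means (n = 2). KO lies above WT for Mxra8, C1qtnf12, Cptp, Vamp3, Clcn6 and Dffa and below it for Kcnab2, Ints11 and Ccnl2, with no overlap of the dots.

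Mxra8 showed the widest gap of the 9 genes in CPM. The gene, at 155924137 to 155928560 on the plus strand, had 36 and 32.9 CPM in the WT libraries against 93.5 and 76.2 CPM in KO, replicate 1 before replicate 2 here and throughout. The lowest KO value stood 40.2 CPM above the highest WT value. The means were 34.5 ± 2.23 CPM in WT and 84.9 ± 12.2 CPM for KO (SD, n = 2), so the KO mean was 2.46-fold higher, with a difference of 1.27 on the log2(CPM + 1) scale. The depth behind it was 62.0 and 59.4 estimated reads in WT and 70.0 and 45.6 in KO, so more reads of Mxra8 were counted in KO replicate 1 than in either WT library despite its lower depth. Mxra8 is made by mesenchymal cells in other mouse tissues, and the fibroblast and matrix markers, 8 of 8 measured and none at 0 in all 4 libraries, summed to 370.2 and 371 CPM in the WT libraries against 373 and 423 CPM in KO. Their mean log2 values were above WT for 3 and below it for 5. Of 14 adhesion and matrix genes listed with Mxra8, such as integrins, decorin and collagens, some of them also among those markers, 0 passed over all genes, 0 had an unadjusted p under 0.05, 6 were higher and 8 lower, with a median log2 difference of -0.12 against -0.04 over all genes tested. The smallest p among them belonged to Fbln1, for the matrix protein fibulin-1, with 13.1 and 13.6 CPM in the WT libraries against 7.54 and 8.36 CPM for KO (limma, BH-adjusted p = 0.950).

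C1qtnf12, at 156046769 to 156051087 on the plus strand, had 6.84 and 8.85 CPM in the WT libraries against 26.7 and 15.1 CPM in KO. KO was higher in each library, but the KO values differed from each other by more than the lower of them differed from WT. The means were 7.84 ± 1.43 and 20.9 ± 8.25 CPM (SD, n = 2), a 2.66-fold higher mean on 27.8 estimated reads in WT and 29.0 in KO, of which KO replicate 2 gave 9.0. Of 12 measured relatives and receptors, among them adiponectin and its receptors, 0 passed over all genes and 0 had an unadjusted p under 0.05, with 5 higher, 7 lower and a median of -0.05. The smallest p was that of C1ql1, a synaptic member of the family, at 1.33 and 1.66 CPM in the WT libraries against 4.23 and 4.44 CPM for KO (limma, BH-adjusted p = 0.950).

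Cptp and Ints11 are transcribed away from each other from starts 127 bases apart, next to Tas1r3, and differed in opposite directions. Cptp, at 155949180 to 155953898 on the minus strand, had 182 and 187 CPM in the WT libraries against 232 and 219 CPM in KO. Its means were 185 ± 3.49 and 225 ± 8.79 CPM (SD, n = 2), a 1.22-fold higher mean, the smallest relative difference of the 9 genes but on the most reads, 651 in WT and 304 in KO. Ints11, at 155954024 to 155973561 on the plus strand, had 41.3 and 31.5 CPM in the WT libraries against 13.4 and 19.6 CPM in KO. Its WT mean of 36.4 ± 6.95 CPM was 2.21-fold above the KO mean of 16.5 ± 4.40 CPM, a log2 difference of -1.11, with 10 and 11.7 estimated reads in KO. The ratio of Cptp to Ints11 CPM was 4.41 and 5.94 in WT and 17.3 and 11.2 in KO, while their sum was 223 and 218 CPM in the WT libraries against 245 and 239 CPM in KO. The last 245 bases of Ints11 overlap the end of Pusl1, a pseudouridine synthase-like gene on the other strand; the sources used here do not say whether counting used strand, so reads there are uncertain. Pusl1 was low, at 2.59 and 0.553 CPM in the WT libraries against 6.64 and 3.8 CPM in KO. These values rest on only 4.45 and 1.00 estimated reads in WT and 4.97 and 2.27 in KO.

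The shared start region of Cptp and Ints11 is shown because both genes read out from it. RefSeq windows on GRCm38.p6, from 250 bases before to 50 after the start, cover chr4:155869391-155869690 (minus strand) for Cptp and chr4:155869317-155869616 (plus strand) for Ints11, and 226 of their 300 bases are the same DNA read from opposite strands. The Mxra8 window, chr4:155839430-155839729 (plus strand), is set beside them as that of the gene with the widest gap. Capitals mark the motifs found in a search of both strands. The GC box was searched as GGGCGG and the box bound by nuclear factor Y as CCAAT. For the TATA box the letters were TATAAA. The core of the cAMP response element was searched as TGACG, and the motif of MYB factors as AACNGTT. Where CCAAT on one strand runs into CCAAT on the other, the capitals join.
Cptp: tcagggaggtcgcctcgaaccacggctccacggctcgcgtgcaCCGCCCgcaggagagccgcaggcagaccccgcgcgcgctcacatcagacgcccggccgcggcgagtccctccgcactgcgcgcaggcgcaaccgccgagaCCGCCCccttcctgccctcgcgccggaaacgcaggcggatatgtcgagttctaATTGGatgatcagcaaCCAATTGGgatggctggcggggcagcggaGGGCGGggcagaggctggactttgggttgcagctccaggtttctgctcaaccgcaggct
Ints11: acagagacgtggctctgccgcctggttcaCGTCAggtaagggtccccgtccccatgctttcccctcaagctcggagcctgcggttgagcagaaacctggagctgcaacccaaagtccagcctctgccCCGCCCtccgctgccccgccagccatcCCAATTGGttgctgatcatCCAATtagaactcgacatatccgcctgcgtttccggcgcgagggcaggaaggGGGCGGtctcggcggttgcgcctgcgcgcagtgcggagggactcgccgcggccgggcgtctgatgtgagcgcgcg
Mxra8: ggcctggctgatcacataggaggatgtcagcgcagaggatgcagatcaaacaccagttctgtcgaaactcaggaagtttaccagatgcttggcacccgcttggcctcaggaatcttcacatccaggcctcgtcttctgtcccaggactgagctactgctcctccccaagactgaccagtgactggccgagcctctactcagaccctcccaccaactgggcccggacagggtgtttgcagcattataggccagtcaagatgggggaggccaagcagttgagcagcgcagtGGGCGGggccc
The Cptp window holds 3 GC boxes and 3 CCAAT matches, the Ints11 window 2 GC boxes, 3 CCAAT matches and 1 TGACG, and the Mxra8 window 1 GC box. For 7 of the 9 genes the table gave windows, 9 in all since Kcnab2 has 3. GGGCGG was in 7 of these 9 and in 35.7% of 32851 promoters, CCAAT in 5 and in 37.4%, and TGACG in 5 and in 20.8%. TATAAA, in 13.6% of promoters, and AACNGTT, in 4.45%, were in 0 of the 9. Matches in the bases that Cptp and Ints11 share count in both windows, so the 9 windows are not independent. They held from 51% GC (Dffa) to 69% GC (Cptp), against a median of 52.7% over all promoters. No enrichment is read from these counts. The matches describe letters in the window and nothing about binding.

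The same was counted over all divergent pairs, Cptp and Ints11 among them. Among 1099 divergent pairs of tested genes with starts within 1 kb, 504 had log2 differences of opposite sign (45.9%), and in 66 (6.01%) both genes had genotypes that did not overlap and lay on opposite sides, while in 72 they did not overlap and lay on the same side. The log2 differences of Cptp and Ints11 were 1.39 apart. Of all the pairs, whatever their signs, 5.28% were at least as far apart, and of those 66 pairs 13 were. This count was set up after the values of Cptp and Ints11 were seen.

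**Figure D2:**
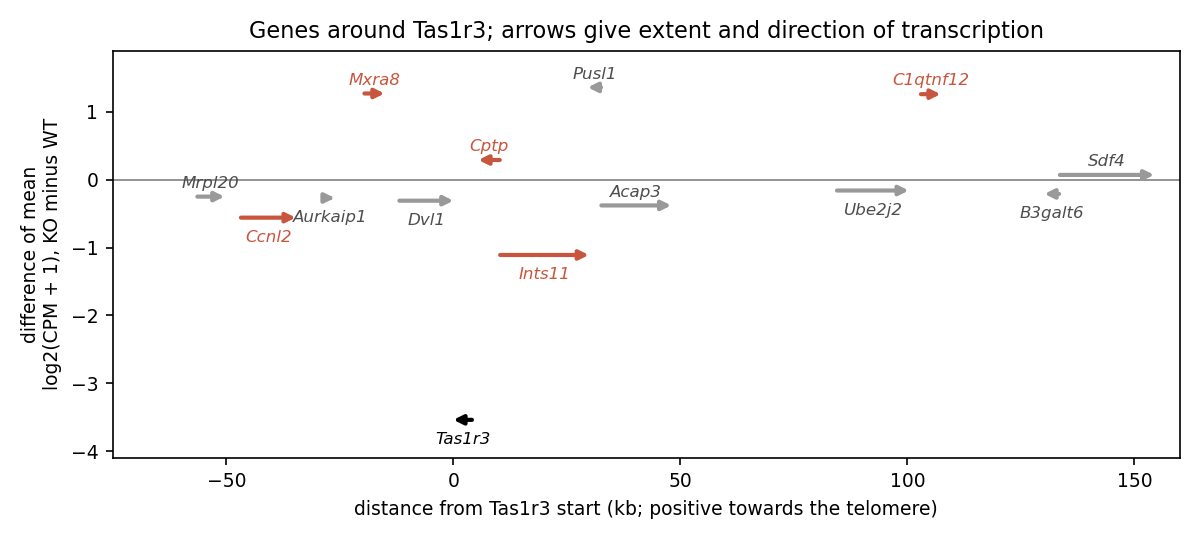
Genes tested around Tas1r3, placed by distance from its lower end in kb (x axis) and by the difference of mean log2(CPM + 1), KO minus WT (y axis); arrows span each gene and point along transcription, with the 9 genes in red, Tas1r3 in black and others in grey. Cptp at 0.29 and Ints11 at -1.11 start beside each other, and the grey genes other than Pusl1 (1.36) lie between -0.38 and 0.07.

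The rest of the Integrator complex held no gene past the test. Only 1 of all 17654 genes tested passed it, so 0 in this or any other list does not show unchanged levels. Of 17 other measured Integrator subunits and relatives, 0 passed over all genes and 0 had an unadjusted p under 0.05. In 2 (11.8%) the genotypes did not overlap, both with KO higher, against 34.3% of all genes tested, 15.1% with KO higher. Of the 17, 6 were higher and 11 lower in mean log2 value, with a median of -0.04, the same as over all genes tested. Ints4, a scaffold of the cleavage module that holds Ints11, had the smallest p of the list, with 40.8 and 37.7 CPM in the WT libraries against 50.8 and 43.5 CPM for KO (limma, BH-adjusted p = 0.950). For Cptp, 12 lipid carriers and sphingolipid enzymes had 0 members past the test and 0 with an unadjusted p under 0.05, with 5 higher and 7 lower. Sptlc1, a subunit of the enzyme that begins sphingolipid synthesis, was nearest at 22.6 and 28.6 CPM in the WT libraries against 17.4 and 21.7 CPM for KO (limma, BH-adjusted p = 0.950).

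Ccnl2, at 155896946 to 155909001 on the plus strand, had 39.1 and 45.9 CPM in the WT libraries against 29.9 and 26.9 CPM in KO. The WT mean of 42.5 ± 4.78 CPM was 1.5-fold above the KO mean of 28.4 ± 2.15 CPM (SD, n = 2), with 22.4 and 16.1 estimated reads in KO and a gap of 9.24 CPM between the genotypes. Its kinase partner Cdk11b lies in the same region and had 57.4 and 50.4 CPM in the WT libraries against 82.8 and 56.9 CPM in KO, with overlapping genotypes (limma, BH-adjusted p = 0.950). Of 15 cyclin, kinase and splicing regulators listed with Ccnl2, 0 passed and the median log2 difference was 0.01. For 1 of them (6.67%) the unadjusted p was under 0.05, against 4.33% of all genes. That gene was Ccnt1, a cyclin of transcription elongation, at 22.7 and 24.1 CPM in the WT libraries against 43.7 and 30.1 CPM for KO (limma, BH-adjusted p = 0.950).

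Vamp3, at 151131762 to 151142411 on the minus strand, had 42.8 and 45.2 CPM in the WT libraries against 81.5 and 68.6 CPM in KO. The KO libraries were both above the WT pair by at least 23.3 CPM, and the means of 44 ± 1.7 and 75 ± 9.13 CPM (SD, n = 2) made a 1.7-fold higher mean. It was read 73.7 and 81.8 times in WT and 61.0 and 41.0 times in KO. Among 20 other measured SNARE genes and their disassembly factors, 0 passed over all genes, and the median was -0.01. An unadjusted p under 0.05 was found for 3 of the 20 (15.0%), all lower in KO. Over all genes tested, 3.01% were lower in KO with such a p. No enrichment is read from this count. Nsf, the ATPase that takes SNARE complexes apart, was the nearest, at 15.7 and 18.7 CPM in the WT libraries against 9.35 and 5.58 CPM in KO, on 7.0 and 3.34 estimated reads in KO (limma, BH-adjusted p = 0.950).

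Clcn6, at 148088716 to 148123271 on the minus strand, had 9.36 and 9.42 CPM in the WT libraries against 18.7 and 23.4 CPM in KO. The mean was 9.39 ± 0.0416 CPM in WT and 21.0 ± 3.30 CPM for KO (SD, n = 2), so the KO mean was 2.24-fold higher. The close WT values are no sign of precision: they rest on 16.1 and 17.0 estimated reads, for which counting alone gives an SD of 2.31 CPM. Of 10 CLC channels, exchangers and their accessory subunits, 0 passed and 0 had an unadjusted p under 0.05, with 4 higher, 6 lower and a median of -0.26.

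Kcnab2, at 152475201 to 152562007 on the minus strand, had 62.3 and 62.7 CPM in the WT libraries against 36.4 and 29.3 CPM in KO. The WT mean of 62.5 ± 0.294 CPM was 1.9-fold above the KO mean of 32.8 ± 4.99 CPM (SD, n = 2), with 107 and 113 estimated reads in WT and 27.2 and 17.5 in KO. Its 5 transcripts were all lower in mean CPM in KO. The 2 that begin farthest upstream, NM_001252654 and NM_010598, summed to 25.3 and 34.9 CPM in the WT libraries against 12.7 and 10.2 CPM in KO. The other 3 summed to 36.9 and 27.8 CPM in the WT libraries against 23.7 and 19.1 CPM in KO. These transcript values are not separate measurements: within the far-start pair the ratio was 0.563 in every library, and NM_001252655 stood at 0.360 of NM_001355172 in every library. In KO the far-start share was also the same in both libraries, 34.9%, against 40.7% and 55.7% in WT. The far-start end of Kcnab2 overlaps Nphp4, a cilium gene on the other strand, by 844 bases, and Nphp4 had 32.7 and 36.2 CPM in the WT libraries against 35.2 and 36.9 CPM in KO. Of 9 measured potassium channel subunits, 0 passed and 0 had an unadjusted p under 0.05, with 2 higher and 7 lower. The related beta subunit Kcnab1 had 4.09 and 6.42 CPM in the WT libraries against 9.35 and 13.4 CPM for KO (limma, BH-adjusted p = 0.950).

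Dffa, at 149188599 to 149205111 on the plus strand, had 6.40 and 7.19 CPM in the WT libraries against 12 and 15.1 CPM for KO, a 1.99-fold higher mean (6.79 ± 0.561 against 13.5 ± 2.17 CPM, SD, n = 2). By transcript, the coding NM_001025296 had 6.40 and 7.19 CPM in the WT libraries against 5.68 and 7.29 CPM in KO, and its genotypes overlapped. All of the higher value in KO was assigned to the non-coding NR_104263, listed at 0 estimated reads in both WT libraries and at 4.7 and 4.6 in KO, or 6.30 and 7.76 CPM. Against a floor of 3 reads over the WT libraries (0.851 CPM) the pooled KO level, 9.35 reads over both libraries, was 8.17-fold higher. That ratio takes the KO reads as exact, so it is no lower limit. Both transcripts share the same ends, so the split is the authors' software's assignment of 8.97 and 9.0 estimated reads of the gene in KO, against 11 and 13 in WT. Dffb, the nuclease that the Dffa protein holds inactive, lies in the same region and had 5.69 and 1.80 CPM in the WT libraries against 5.56 and 5.02 CPM in KO, with overlapping genotypes (limma, BH-adjusted p = 0.950). Of 16 measured genes of caspase-driven DNA fragmentation, 0 passed and 0 had an unadjusted p under 0.05, with 9 higher, 7 lower and a median of 0.15. The survival factor gene Bcl2l1 was nearest, at 83.8 and 85.5 CPM in the WT libraries against 97.5 and 112 CPM for KO (limma, BH-adjusted p = 0.950).

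**Figure D3:**
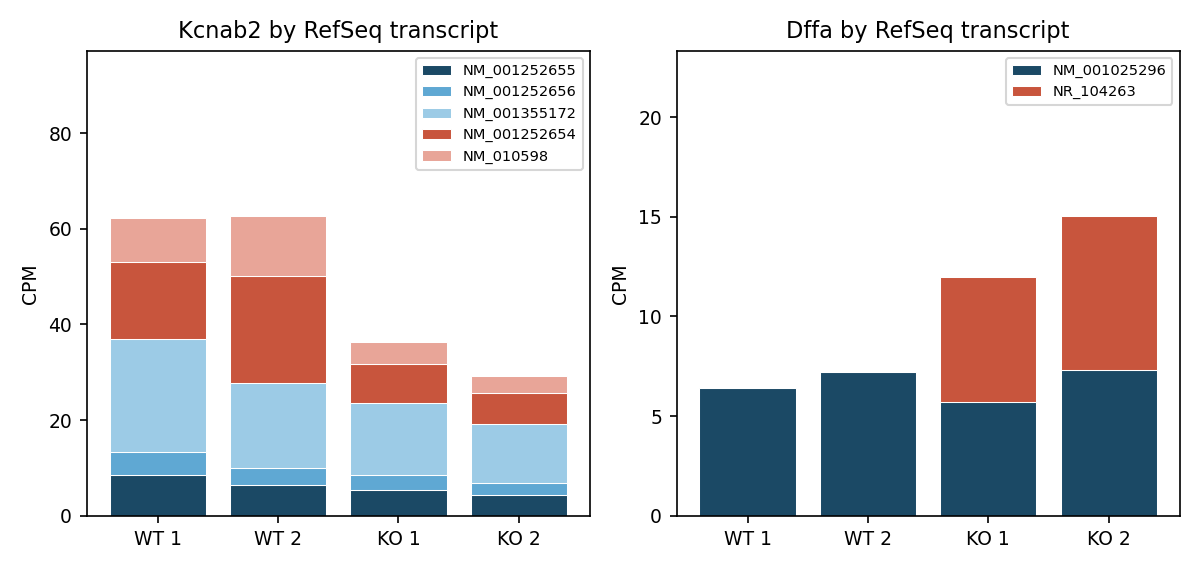
CPM of each RefSeq transcript (stacked bars from 0) of Kcnab2 and Dffa in each library. For Kcnab2 all 5 segments are shorter in mean in KO; for Dffa the blue coding transcript stays between 5.68 and 7.29 CPM and the red non-coding transcript appears in KO at 6.30 and 7.76 CPM.

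Levels of the 9 genes were ranked per kb of transcript. The ratio and sum of Cptp and Ints11 and the gap of Mxra8 above were in plain CPM. In WT, Cptp was the highest at a mean of 69.3 CPM per kb, followed by Vamp3 at 20.8. Kcnab2, Ccnl2, Ints11 and Mxra8 formed a group at 17.6, 17.4, 15.5 and 15.2 CPM per kb, in which each gene overlapped the next in order when set library against library. C1qtnf12 at 5.94, Dffa at 2.75 and Clcn6 at 1.81 CPM per kb were the lowest. In KO that middle group came apart, with Mxra8 at 37.5 CPM per kb level with Vamp3 at 35.5, and Ccnl2, Kcnab2 and Ints11 at 11.6, 9.23 and 7.03. Clcn6, at 4.06 CPM per kb, remained the lowest in mean.

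Flanking genes were taken as a set of their own. The nearest gene on each side that was neither one of the 9 nor a predicted gene gave 15 genes, of which 0 passed over all genes (limma, BH-adjusted p from 0.627 for Tas1r3 to 0.994 for Per3). In 8 of the 15 the genotypes overlapped, in 3 KO was higher and in 4 lower, Tas1r3 among the latter, where over all genes tested 15.1% were higher and 19.2% lower without overlap. Beside Mxra8, Aurkaip1, which binds Aurora kinase A, had 76.2 and 74.0 CPM in the WT libraries against 48.1 and 80.3 CPM in KO. On its other side Dvl1, of Wnt signalling, had 149.8 and 159 CPM in the WT libraries against 148 and 104 CPM in KO. Per3, a circadian clock gene beside Vamp3, had 11.1 and 10.2 CPM in the WT libraries against 10.4 and 10 CPM in KO, and Chd5, a chromatin remodeller of spermatids beside Kcnab2, had 359.9 and 427 CPM in the WT libraries against 505 and 396 CPM in KO. Camta1, a transcription activator gene on the other side of Vamp3, had 12 and 14.2 CPM in the WT libraries against 15.0 and 34.3 CPM in KO. Around Dffa, Pex14, of peroxisomal import, had 34.4 and 40.7 CPM in the WT libraries against 29.4 and 23.4 CPM in KO, and the centromere gene Cenps had 6.19 and 11.1 CPM in the WT libraries against 12 and 13.1 CPM in KO. Mrpl20, a mitochondrial ribosomal gene beside Ccnl2, had 101 and 79.6 CPM in the WT libraries against 76.1 and 73.6 CPM in KO. Ube2j2, a ubiquitin-conjugating enzyme of the endoplasmic reticulum, and B3galt6, a proteoglycan linker enzyme, flank C1qtnf12. Ube2j2 had 59.5 and 44.1 CPM in the WT libraries against 35.3 and 59.1 CPM in KO. B3galt6 had 7.04 and 7.29 CPM in the WT libraries against 4.06 and 8.84 CPM in KO. Nppa, the atrial natriuretic peptide gene beside Clcn6, had at most 4.00 estimated reads in a library.

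The median log2 difference of the other 155 genes tested in the region was -0.05, against -0.04 over all genes, with 72 above and 83 below 0 and 0 past the test (limma, BH). An unadjusted p under 0.05 was found for 17 of these 155 genes (11%), for 44 of 944 genes on the rest of chromosome 4 (4.66%) and for 4.33% of all genes. Within 1 Mb of Tas1r3 it was found for 5 of 52 genes (9.62%), all 5 being Tas1r3 or among the 9, which were picked for this difference, so nothing is read from the 0 of 46 genes that remain without them. The 17 include Tas1r1, the umami partner subunit of Tas1r3, at 3.23 and 3.52 CPM in the WT libraries against 19.8 and 25.1 CPM for KO (limma, BH-adjusted p = 0.627). Tas1r1 had 5.56 and 6.37 estimated reads in WT and 14.8 and 15.0 in KO. The 17 also include zinc finger genes such as Zfp990 and Zfp991, whose close copies can share reads. These shares describe 4 libraries and do not show that the region differs from others.

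**Figure D4:**
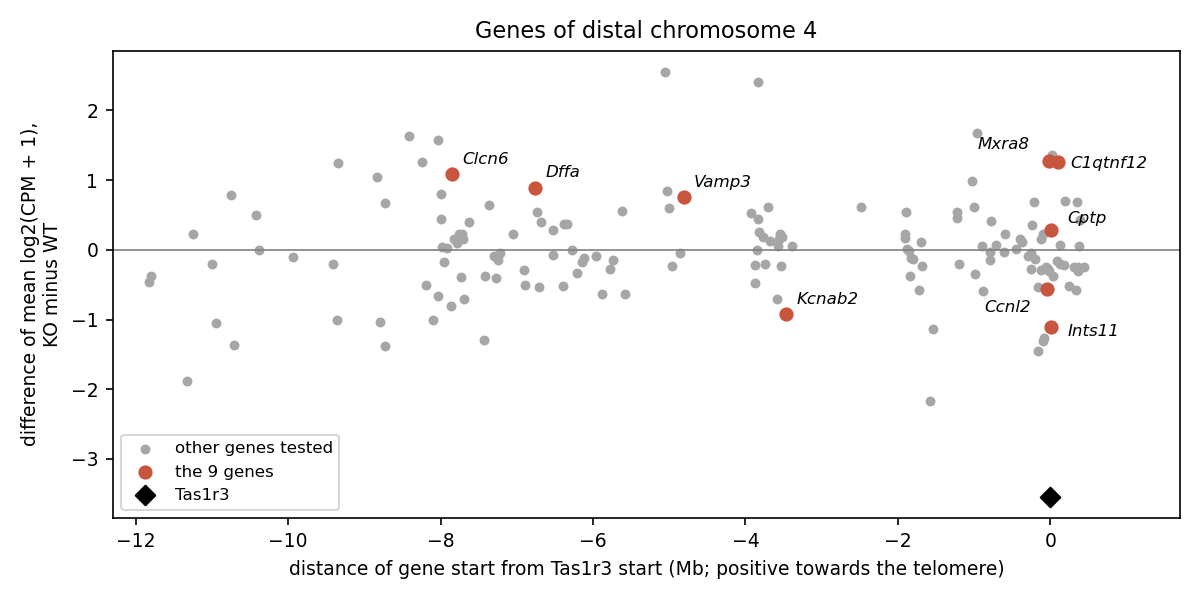
Difference of mean log2(CPM + 1), KO minus WT (y axis), for the 164 tested genes of the region, by distance of the gene's lower end from that of Tas1r3 in Mb (x axis); red dots are the 9 genes, the black diamond Tas1r3 and grey dots the others. Red dots, picked for their difference, lie on both sides of 0, 5 of them within 103 kb of Tas1r3. Grey dots of similar size of difference include genes with few reads. Among 90 other genes in the CPM range of the 9, 4 differed by 1 or more (4.44%). Of all genes tested in that range 1.14% did.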

How the data were processed

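For every library the authors deposited a table of 29342 RefSeq transcripts placed on mm39. Per the labels' protocols, libraries were built from total RNA with an Ion Total RNA-Seq kit. STAR and Partek are named in the submitters' processing notes, without role or version. Each deposited column sums to 1000000, and the commonest low values are multiples of 1 step for transcripts of all lengths, so the unit was taken as CPM. The step, 0.582, 0.553, 1.34 and 1.67 CPM in WT 1, WT 2, KO 1 and KO 2, is the CPM of 1 read, and estimated reads are CPM divided by it. Within 0.01 reads, only 21.1% to 49.1% of genes had whole reads, so no count model was fitted. Coordinates are printed as deposited. Stop minus Start equals the length of unspliced transcripts, so 1 end is open and distances allow for that.

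Transcripts were summed per symbol, and the 10 symbols present on more than 1 chromosome were split by chromosome. Genes averaging 1 CPM or more over the libraries, 17654 in all, went into limma (version 3.58.1, R 4.3.3) as log2(CPM + 1), fitted with its variance trend, two-sided, BH-adjusted over all genes, and the procedure was tested on simulated data. Reads carry no molecular identifiers, and counting SDs and floors cover counting error only. The 9 genes, lists and tests were chosen with earlier results of these data known. The named genes are the 9, Tas1r3, the nearest gene on each side that was neither predicted nor one of the 9, and the list gene with the smallest unadjusted p. Of the genes this rule names, 2 are not reported here. Cdk11b and Dffb were added for their roles, and Tas1r1, Zfp990 and Zfp991 after their values were seen. Of the marker lists, fibroblast and germ cell lists are given in the report. Peritubular myoid markers were lower in KO in 5 of 5 and erythroid markers in 5 of 5. In the other lists both directions occurred, with 6 of 8 Sertoli, 3 of 7 Leydig, 4 of 5 endothelial, 1 of 6 macrophage and 1 of 3 adipose markers higher, and 0 of 5 epididymal markers were found in the tables. None passed the test (limma, BH), and 1 erythroid marker had an unadjusted p under 0.05. The fit was repeated with a pseudocount of 0.1 or 5 CPM, with all genes or only those averaging 5 CPM, with TMM scaling or quantile normalization, without the trend, with a block for replicate number, with a threshold of 0.1 on adjusted p, with other region limits, with the most abundant transcript and with each library left out. Figures were drawn with matplotlib 3.10.9.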

Additional observations from a re-analysis of the deposited data

How the results depend on the processing

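WT and KO did not overlap for 9 of 9 genes under TMM scaling or quantile normalization; the other gene-level settings cannot create an overlap and say nothing of stability. On its most abundant transcript alone Dffa overlapped. Of 117 values of the log2 differences of the 9 genes under 13 alternatives, 113 moved by less than 1 SD between replicates, 3 moved by more (Clcn6 to 0.85 and Dffa to 0.65 with a pseudocount of 5 CPM, Kcnab2 to -0.56 on its most abundant transcript) and 1 changed sign, Dffa on its most abundant transcript, at -0.06. Filter, trend and block settings cannot move these values, nor can the transcript setting for the 7 genes with 1 transcript. With 2 libraries per genotype, leaving 1 out cannot move a value by as much as 1 SD between replicates. The values with a library left out are therefore no sign of stability. So values fixed in advance are among the 113. The count of genes called, 1 at first (Ptchd3, not among the 9), was 0 with a pseudocount of 0.1 CPM or without the mean-variance trend. With a library left out it ranged from 0 to 1054 (0 on dropping either WT library, 1054 on dropping KO replicate 1, with 4 of the 9 among them, and 570 on dropping KO replicate 2, with 5 of the 9). In those fits the lone sample is assumed to vary like the other genotype. With the replicate number as a block, 24 genes were called, 1 of the 9 among them. Same-numbered libraries did not deviate together (correlation across genes -0.00585), so the number is not taken as a pairing. The median log2 difference of the other genes of the region, -0.05, was -0.08 with a mean of at least 5 CPM, 0.01 after quantile normalization, -0.10 for genes from 1.94 Mb before Tas1r3 onward, and between -0.12 and 0.02 with a library left out, a range that spans 0. The cause of these changes was not tested. Depth limits Clcn6, Dffa, C1qtnf12 and Ints11 most, with 18.0 to 29.0 estimated reads over both KO libraries.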
